A study of Mus musculus with 10 samples.

Results

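The secretory coil of the sweat gland was compared with its duct, with the outer and inner cell layer of each pooled. The comparison used 8 of the 10 expression arrays of the study. The 4 gland arrays were those whose titles name gland myoepithelial or gland luminal cells, and the 4 duct arrays those whose titles name duct basal or duct suprabasal cells. Each of these populations had 2 arrays, labelled as biological replicates. The mice were wild-type females of the CD1 background, and cells of their paw pads were sorted by flow cytometry (FACS), while the age of the mice, the sorting markers and the number of animals per array are not given in the sources used here. The other 2 arrays, of palmoplantar epidermis from the same kind of mice, served as an outside reference and helped to estimate the spread between arrays. The p-values rest on how far the arrays of 1 population differ, a spread that may be technical in part. Signals are MAS5 intensities on a linear scale, and a difference is the gland mean minus the duct mean of log2(signal + 12), in which the layers weigh equally, so that 1 stands for 2-fold. Adding 12 understates the change of genes with low signals.

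A sweat gland is a tube with a blind coiled end that secretes and a straight duct that leads to the skin surface. In the coil, contractile myoepithelial cells surround luminal cells that pump ions and water into the lumen. The duct is a layered epithelium that takes salt back from the passing fluid and continues into the epidermis of the sole. Coil and duct arise from the same downgrowth of embryonic epidermis, and Sox10 is a transcription factor gene of secretory cells in several glands, while Krt6a is a keratin of ducts, appendages and wounded epidermis and Nrarp is a target of Notch signalling.

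Some arrays stood apart from their partner. Across the 9304 genes tested, the arrays of duct suprabasal cells correlated at 0.908 and differed more than 2-fold at 1864 genes, against 0.963 to 0.981 and 501 to 817 genes in the other populations. The luminal keratin gene Krt18 had signals of 9821 and 4751 on duct suprabasal arrays 1 and 2, and of 3744 and 444 on myoepithelial arrays 1 and 2, beside 15132 and 17022 on the luminal arrays. The summed signal of 9 fibroblast markers ran from 2309.5 to 44375 over the gland arrays and from 17203 to 93925 over the duct arrays, with the maximum on duct suprabasal array 2. For 10 endothelial markers the ranges were 434.4 to 1070.3 and 786.8 to 30832, again with the maximum on that array. For 9 immune cell markers they were 395.0 to 10303 and 664.4 to 2261.7, with the highest sums on the myoepithelial arrays. Such sums follow abundant genes: the fibroblast marker Dcn alone had 11955 and 15302 on the myoepithelial arrays. The median signal of the 9 fibroblast markers was 45.4 and 49.5 on the myoepithelial arrays and 162 and 343 on the luminal arrays. It was 413 and 407 on the duct basal arrays and 494 and 5629 on the duct suprabasal arrays. In these bulk samples, fewer cells of a type and less RNA per cell cannot be told apart.

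**Figure D1:**
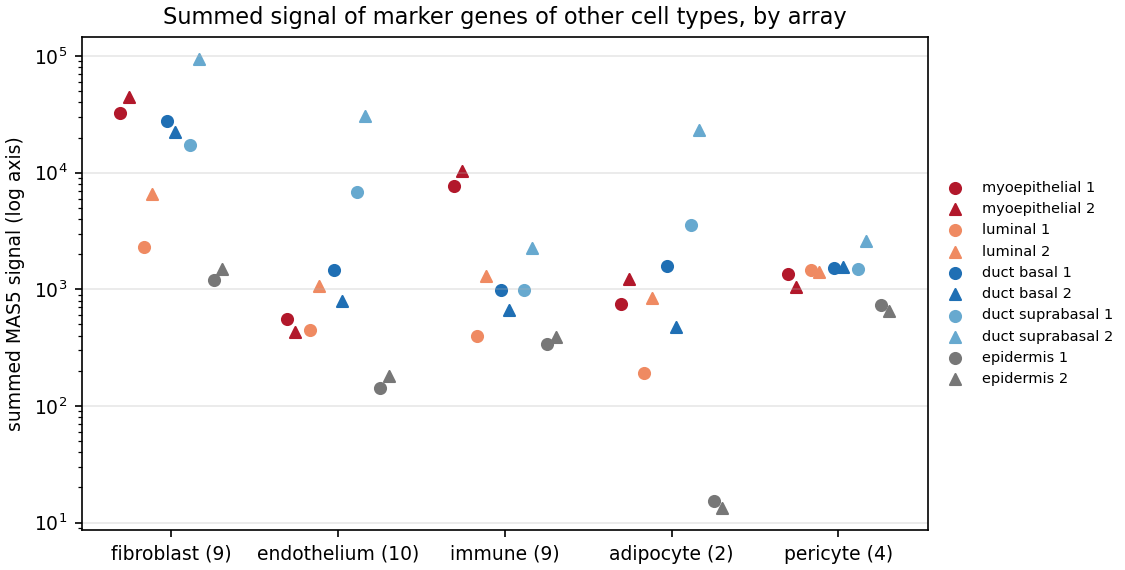
Summed MAS5 signal (log axis) of the tested markers of 5 other cell types on each of the 10 arrays, with the number of markers in brackets, colour for the population and a circle or triangle for array 1 or 2. The endothelial sum of duct suprabasal array 2, 30832, lies above the 786.8 to 6869.5 of the other duct arrays and the 434.4 to 1070.3 of the gland arrays.

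The markers of coil and duct followed the labels. Sox10 had signals of 4039 and 4292 on the myoepithelial arrays, 2848 and 2096 on the luminal arrays, 179.6 and 104 on the duct basal arrays and 875 and 231 on the duct suprabasal arrays. All 4 gland arrays lay above all 4 duct arrays, with a log2 difference of 3.61 (SE 0.36, adjusted p = 0.000177 in limma). Sox10 also marks Schwann cells and melanocytes. Of the 5 Schwann cell markers tested it alone passed, and of the 5 melanocyte markers only Mitf passed (1.79, SE 0.22).

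Krt6a had signals of 366, 283, 152 and 811 on the gland arrays, in the order myoepithelial 1 and 2, luminal 1 and 2. On the duct arrays, in the order basal 1 and 2, suprabasal 1 and 2, it had 5351, 8285, 13060.0 and 8107. The groups did not overlap, and the difference was -4.57 (SE 0.43, adjusted p = 0.000126). Nrarp stood between 70.3 and 141 on the gland arrays and at 1752, 3469, 1548 and 1634 on the duct arrays, in the same order. Its difference was -4.24 (SE 0.23, adjusted p = 8.74e-06). Values of 4 gland and 4 duct arrays are given in this order from here on.

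The layer markers followed the labels in part. Acta2 was highest on the myoepithelial arrays and Krt14 was higher in the outer than in the inner layer of the duct, while Krt18, given above, was high on myoepithelial array 1 and Krt10 did not separate the layers of the duct. Acta2, the smooth muscle actin gene, had 36397 and 58196 on the myoepithelial arrays and 1212 to 2594 on the other gland and duct arrays. Krt14, the keratin of basal epithelial cells, had 35992 and 33738 on the duct basal arrays and 20222 and 24644 on the duct suprabasal arrays. Krt10, a keratin of differentiating epidermis, had 2499 and 10255 on the duct basal arrays and 5549 and 3754 on the duct suprabasal arrays, against 472 to 755 on the gland arrays, so that its highest duct signal was on a basal array. Its partner Krt1 had 4147 and 8452 on the duct basal arrays and 2859 and 3159 on the duct suprabasal arrays, with both basal arrays above the suprabasal ones.

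**Figure D2:**
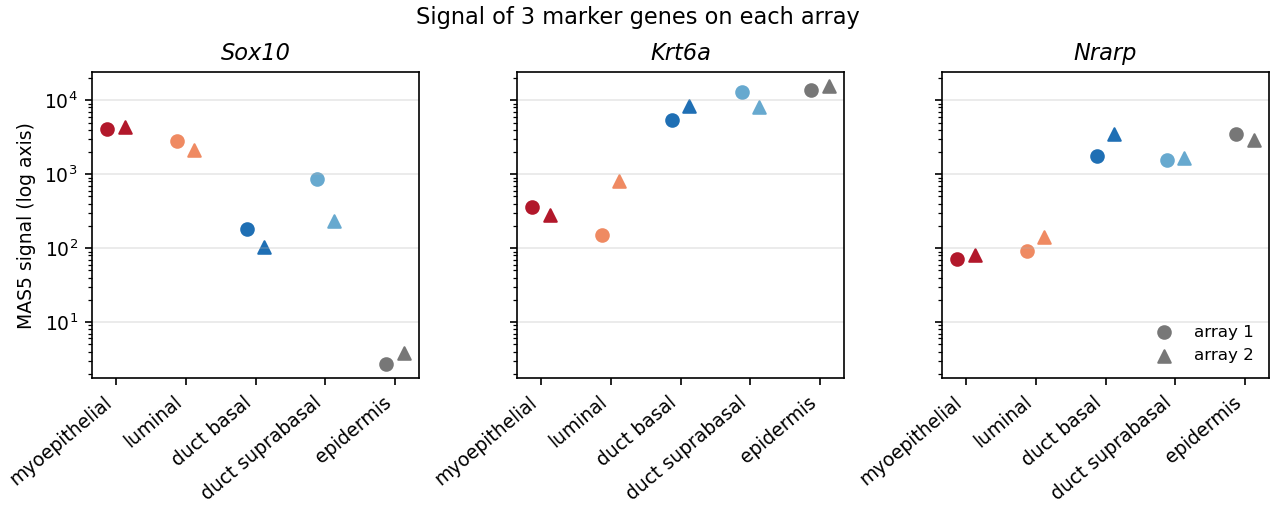
MAS5 signal (log axis) of Sox10, Krt6a and Nrarp on each of the 10 arrays by population (x axis), with a circle for array 1 and a triangle for array 2. The 4 gland arrays of Sox10 (2096 to 4292) lie above the 4 duct arrays (104 to 875), and those of Krt6a and Nrarp lie below theirs.

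More genes were higher in the duct than in the gland. Of 9304 genes, 2150 passed an adjusted p of 0.05 in limma (23.1%), 892 higher in gland (9.59%) and 1258 higher in duct (13.5%). Of these, 351 were at least 2-fold higher in gland and 777 in duct. The 4 gland arrays did not overlap the 4 duct arrays at 1036 genes (11.1%), of which 404 were higher in gland (4.34%) and 632 in duct (6.79%). Both conditions held for 854 genes (9.18%), 297 higher in gland (3.19%) and 557 in duct (5.99%). A further 182 genes had arrays that did not overlap and missed the threshold, and 1296 passed with arrays that overlapped. In a model with compartment but no layers, in which the difference between layers counts as spread, 162 genes passed, and 140 of them were higher in duct. Without luminal array 1 the count of 2150 was 1264, with 455 genes higher in gland. The gland-higher count of 892 was 530 without myoepithelial array 1 and 532 without luminal array 2.

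The layers shared only some of these differences. In the outer layers, that is between myoepithelial and duct basal cells, 2253 genes passed (24.2%), 1115 higher in gland (12%) and 1138 higher in duct (12.2%). In the inner layers, between luminal and duct suprabasal cells, 1405 passed (15.1%), 459 higher in gland (4.93%) and 946 higher in duct (10.2%). These comparisons share no arrays. Both passed in the same direction for 96 genes higher in gland (1.03%) and 328 higher in duct (3.53%). The difference between the outer and inner layer comparisons passed for 1467 genes (15.8%), with the outer value above the inner for 921 (9.9%) and below it for 546 (5.87%). It passed for 182 of the 854 genes with separate arrays and a passing difference. The inner count dropped to 273 or 502 when luminal array 1 or 2 was left out, and to 908 when duct suprabasal array 2 was. The outer count dropped to 1404 or 1173 when myoepithelial array 1 or 2 was left out and to 1153 when duct basal array 2 was, and the count of layer-dependent genes was 615 to 749 without myoepithelial array 2, either luminal array or duct basal array 2.

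**Figure D3:**
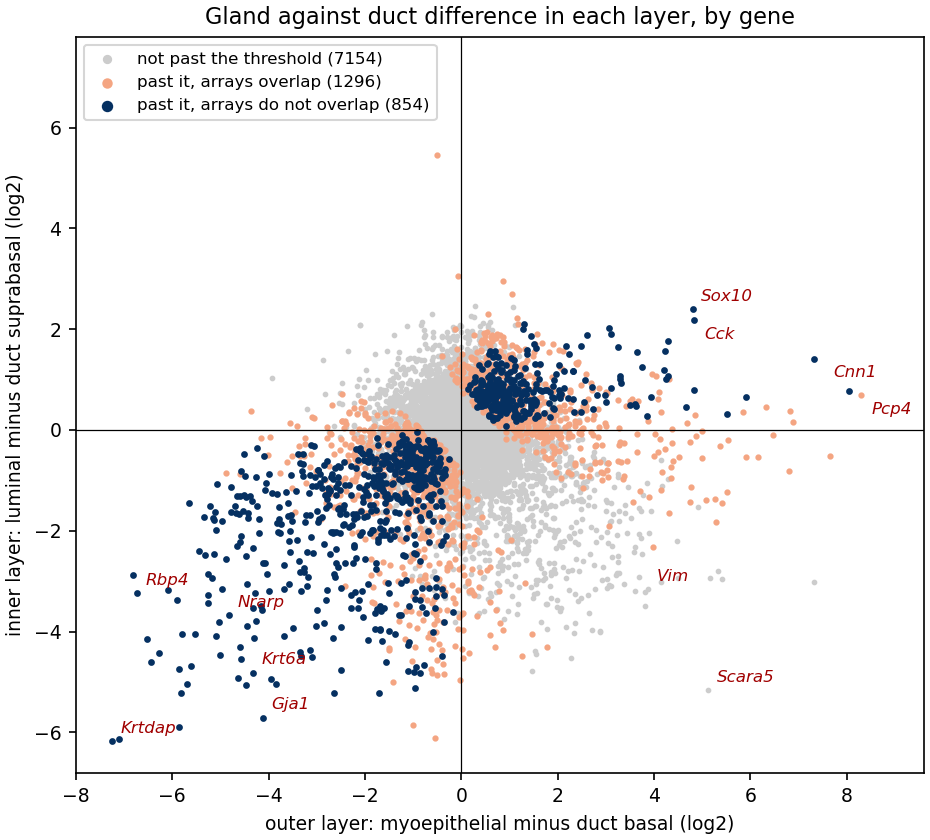
Gland minus duct log2 difference in the outer layer (x axis) and in the inner layer (y axis), with 1 point per gene tested and colour for the pooled call. Krtdap lies at the lower left and Sox10 at the upper right among the 854 genes with separate arrays and a passing pooled difference, while Cnn1 and Pcp4 lie near the outer axis and Scara5 and Vim have layers of opposite sign.

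The genes that were higher in gland in both layers encoded a mixed set of regulators and secreted factors. Cck, the gene of the peptide hormone cholecystokinin, had signals of 5606, 7769, 2352 and 2520.4 on the gland arrays and 318, 154, 705 and 394 on the duct arrays. The lowest gland array lay above the highest duct array, with a difference of 3.50 (SE 0.30, adjusted p = 6.62e-05). Pgf, the gene of placental growth factor, a ligand of the Vegf family, had 2359, 2678, 1846 and 1814 against 259.9, 301, 638 and 360.2. The gland arrays again lay above all duct arrays (2.51, SE 0.24, adjusted p = 0.000136). Among cytoskeletal regulators, Csrp1, which encodes a LIM protein of actin fibres, had 13431, 20671, 12890.0 and 14837 against 1919.8, 2017, 3756 and 3059. The gland layers were alike and each stood above its duct layer (2.55, SE 0.16, adjusted p = 1.42e-05). Ppp1r14a, the gene of an inhibitor of myosin phosphatase, was at 1228, 1488, 512 and 586 in gland and at 85.0, 37.8, 164 and 141 in duct (3.03, SE 0.24, adjusted p = 4.20e-05). It was higher in both layers, and by more in the outer layer (outer minus inner 2.53).

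Transcription cofactors, transporters and enzymes followed among the shared gland genes. Lmo4, the gene of a LIM-only transcription cofactor, had 3751, 4298, 4886 and 6316 in gland and 699.9, 716, 2493 and 1218 in duct. Its groups were separate, and duct suprabasal array 1 came closest to the gland arrays (2.07, SE 0.21, adjusted p = 0.000194). Slc2a4, the gene of the insulin-responsive glucose transporter GLUT4, had 2812, 3214, 3744 and 3455 against 340.0, 269.5, 1503 and 855 (2.46, SE 0.20, adjusted p = 5.12e-05). Gnmt, which encodes glycine N-methyltransferase, was at 278, 277, 655 and 537 in gland and at 80.8, 32.1, 237 and 136 in duct (1.92, SE 0.28, adjusted p = 0.0015). The keratin gene Krt23 had 2825, 2956, 5911 and 4846 against 594, 357, 2638 and 776. Only duct suprabasal array 1, the array with the higher Krt18 signal, came near the gland level of Krt23, and the difference was 2.25 (SE 0.39, adjusted p = 0.0036). Mia, the gene of a secreted protein of cartilage and melanoma cells, had 318, 511, 438 and 533 against 125, 136, 196 and 111 (1.59, SE 0.24, adjusted p = 0.00168). On duct suprabasal array 1 the signals of Sox10, Cck, Krt23, Lmo4 and Slc2a4 were each higher than on array 2. Whether luminal RNA contributed to that array was not tested.

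Contractile genes were higher in gland through the outer layer. Of 13 contractile genes tested, 12 passed as higher in gland (92.3%, against 9.59% of all genes) and none as higher in duct. The list median was 2.81, against -0.00 for all genes. In the outer layer all 13 passed as higher in gland (median 6.16), against 12% of all genes. In the inner layer none passed in either direction (median -0.26). Pcp4, the gene of a calmodulin-binding peptide, had 13141 and 18757 on the myoepithelial arrays and 19.2 to 121 on the other gland and duct arrays, and the luminal arrays did not stand above the duct arrays. Cnn1, which encodes calponin, had 12770.0, 20511, 71.4 and 127 on the gland arrays and 52.3, 45.4, 41.7 and 62.4 on the duct arrays. It was the contractile gene whose gland arrays all lay above the duct arrays (4.41, SE 0.25, adjusted p = 1.02e-05), although its inner layer difference of 0.77 did not pass (adjusted p = 0.174). Of the genes with the largest pooled differences that are not on this list, Sox10, Cck and Pdlim3 passed in both layers and Fblim1 in the outer layer. Pdlim3, an actin-associated LIM protein gene of muscle, had 10166, 13980.0, 628 and 651 against 46.2, 84.1, 268 and 204, with an outer layer difference of 7.32 and an inner one of 1.41. Fblim1, which encodes a filamin-binding adhesion protein, had 2666, 3402, 122 and 172 against 59.7, 23.7, 97.6 and 79.8. Its difference of 3.27 (SE 0.31, adjusted p = 0.000122) rested on the outer layer at 5.90, with 0.65 in the inner layer (adjusted p = 0.349).

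Of 15 genes of fluid secretion, 2 passed as higher in gland (13.3%, against 9.59% of all genes) and none as higher in duct, with a median difference of 0.90. Orai1, the gene of the pore of the store-operated calcium channel, had 411, 480.2, 830.2 and 640.2 on the gland arrays and 159, 128, 393 and 374 on the duct arrays. All gland arrays lay above the duct arrays, narrowly so for the inner layer of the duct (1.23, SE 0.16, adjusted p = 0.000793). Slc4a2, a chloride and bicarbonate exchanger gene, had 818, 675, 508 and 603 against 278, 346, 192 and 422 (1.08, SE 0.24, adjusted p = 0.0119). Aqp5, the water channel gene of sweat secretion, had 3693, 786, 16771 and 24287 on the gland arrays and 1563, 1374, 7265 and 4071 on the duct arrays. Its groups overlapped, and its difference of 1.05 did not pass (SE 0.42, adjusted p = 0.103). Without duct suprabasal array 1, 5 genes of the list passed, and without myoepithelial array 2, 4 did.

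Among 16 transcription factor genes of glands, Sox10 passed as higher in gland and Foxc1, a forkhead gene, as higher in duct (-1.21, SE 0.32, adjusted p = 0.026). That is 6.25% in each direction, below the 9.59% and 13.5% of all genes. The call of Foxc1 ended without myoepithelial array 2, either luminal array or duct basal array 2. Foxi1, a gene of ion-transporting cells, was at 4566 and 3732 on the luminal arrays and at 1510.2 and 360.1 on the duct suprabasal arrays. Its pooled difference of 1.37 missed the threshold (SE 0.61, adjusted p = 0.138). Without duct suprabasal array 1, 4 genes of this list passed as higher in gland. Of the 14 simple epithelial genes only the keratin gene Krt8 passed as higher in gland (1.85, SE 0.33). The claudin gene Cldn4 (-1.31) and the stem cell and apical membrane gene Prom1 (-1.40) passed as higher in duct. These shares of 7.14% and 14.3% were close to the 9.59% and 13.5% of all genes. Without myoepithelial array 2, 5 simple epithelial genes passed as higher in gland, and without luminal array 1 none passed as higher in duct.

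Genes of epidermal differentiation were higher in the duct, in both layers. Of 20 tested, 15 passed as higher in duct and none as higher in gland, and 15 had arrays that did not overlap, against 13.5% and 6.79% of all genes. The median difference of the list was -2.47, with -2.36 in the outer and -2.25 in the inner layer. In each layer 13 passed as higher in duct, against 12.2% and 10.2% of all genes. Krtdap, the gene of a secreted protein of differentiating keratinocytes, had 204, 66.5, 83.3 and 429 on the gland arrays and 15983, 24544, 12326 and 17546 on the duct arrays. Every duct array lay far above the highest gland array (-6.71, SE 0.47, adjusted p = 2.36e-05). Krt2, a keratin gene of upper epidermal layers, had 6.0, 92.1, 10.3 and 11.2 against 632, 1764, 2106 and 212 (-4.77, SE 0.73, adjusted p = 0.00196). The 4 duct arrays of Krt2 varied by more than those of Krtdap. Dmkn, which encodes the secreted protein dermokine, had 199, 125, 177 and 276 against 8742, 10962, 5796 and 6769.8 (-5.30, SE 0.19, adjusted p = 1.67e-06). Calml3, a calmodulin-like gene of epithelia, had 386, 209, 195 and 822 against 12118, 17296, 9763 and 11558 (-5.14, SE 0.39, adjusted p = 3.46e-05).

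Lor and Flg, late genes of the same program, were low in the duct beside the epidermis. Lor, the gene of loricrin, the main protein of the cornified envelope, had 75.3 to 119 on the duct arrays and 38.1 to 83.2 on the gland arrays, beside 1125 and 1009 on the epidermis arrays. Its gland against duct difference of -0.76 missed the threshold (SE 0.25, adjusted p = 0.059). Flg, the gene of filaggrin, had at most 23.2 on the duct arrays and 154 and 99.0 on the epidermis arrays (0.04, SE 0.37, adjusted p = 0.956). Klk7 and Tgm3 did not pass either, at -0.85 and -0.61. Casp14 had separate arrays but low signals, 4.7 to 19.2 in duct and 1.2 to 3.6 in gland, and did not pass (-0.71).

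Other genes with the largest differences towards duct were not on that list. Mt4, the metallothionein gene of stratified epithelia, had 55.6, 46.4, 25.7 and 188 in gland and 5222, 14187, 6296 and 5865 in duct (-6.62, SE 0.48, adjusted p = 2.65e-05). Calm4, the gene of a calcium-binding protein of skin, had 83.7, 7.7, 3.8 and 96.3 against 1586, 3915, 2539 and 2364 (-5.87, SE 0.64, adjusted p = 0.000278). Both stood at least an order of magnitude apart on every pairing of a gland with a duct array. Anxa8, the gene of the membrane-binding protein annexin A8, had 365, 99.0, 84.4 and 287 against 13284, 9915, 6704 and 5987 (-5.52, SE 0.43, adjusted p = 4.06e-05). Klk8, a protease gene of the upper epidermis, had 82.4, 149, 17.9 and 148 against 8318, 13786, 985 and 2780.0, with the outer duct layer above the inner (-5.52, SE 0.51, adjusted p = 0.000117). Adh7, an alcohol dehydrogenase gene of surface epithelia that oxidises retinol and ethanol, had 29.8, 57.1, 15.1 and 12.9 against 3585, 2145, 967 and 724 (-5.36, SE 0.26, adjusted p = 6.14e-06). Duoxa1, whose product brings the hydrogen peroxide-producing dual oxidase to the cell surface, had 93.5, 96.3, 25.3 and 99.7 against 2328, 2736, 1348 and 1644 (-4.55, SE 0.29, adjusted p = 1.45e-05).

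**Figure D4:**
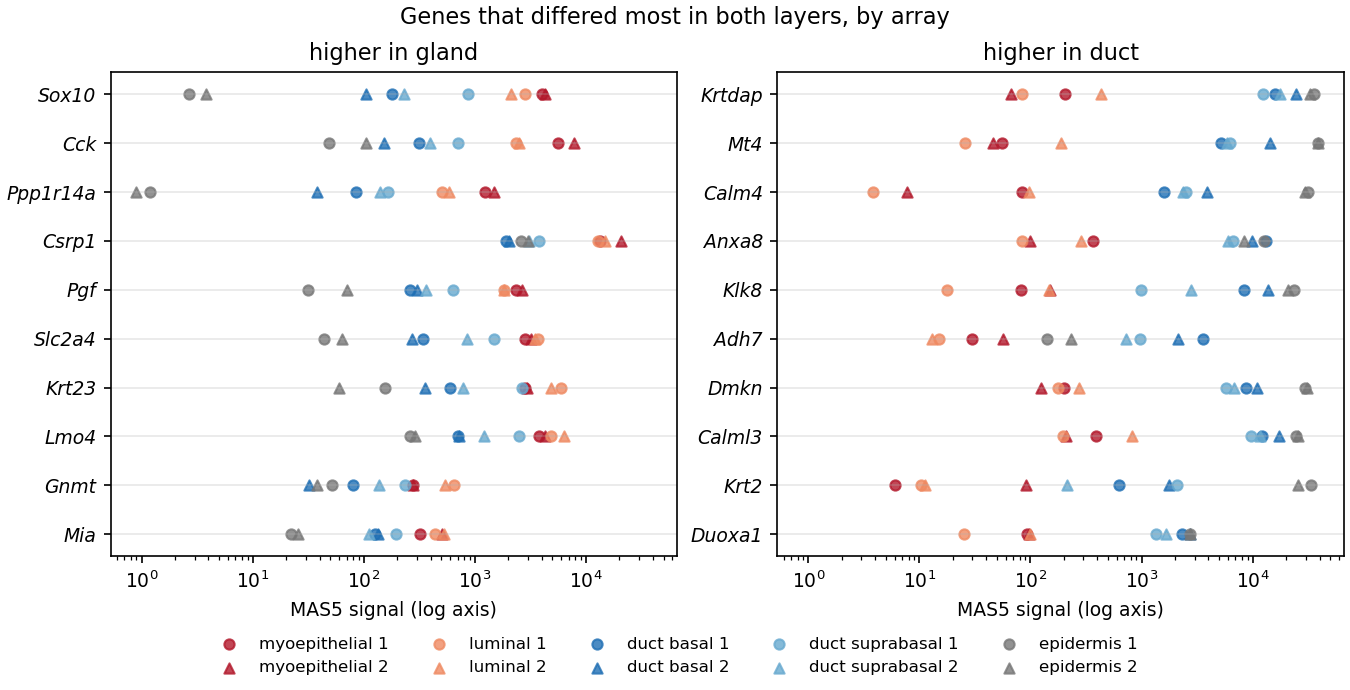
MAS5 signal (log axis) on each gland, duct and epidermis array for the genes with the largest difference shared by both layers, 10 per direction, with colour for the population and a circle or triangle for array 1 or 2. The gland and duct arrays of each gene do not overlap, as the rule for naming requires, and the epidermis arrays lie above the duct arrays for Krtdap and below them for Adh7.

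Keratins of wounding and cell junction genes were also higher in the duct. Of 13 genes of wound and stress keratinocytes, 10 passed as higher in duct, 6 of them with separate arrays, and none passed as higher in gland (median -1.87). Of all genes, 13.5% passed as higher in duct and 6.79% had separate arrays in that direction. Krt16, the partner of Krt6a in its filaments, had 13.2, 8.4, 3.4 and 1.1 on the gland arrays and 302, 759.8, 187 and 209 on the duct arrays (-4.16, SE 0.29, adjusted p = 2.42e-05). Both keratins of the pair were thus higher on every duct array. The alarmin genes S100a8 (-0.23) and S100a9 (0.24) did not pass.

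Of 12 desmosome and gap junction genes, 8 passed as higher in duct (66.7%, against 13.5% of all genes) and none as higher in gland (median -1.61). Gja1, the gene of connexin 43, had 743, 892, 121 and 383 in gland and 15105, 13672, 12880.0 and 11116 in duct. The duct arrays were close to each other and far above the gland arrays (-4.92, SE 0.29, adjusted p = 1.09e-05). Another probe set of Gja1 pointed the other way, below the threshold. The connexin genes Gjb2 (-1.87), Gjb5 (-3.42) and Gjb6 (-2.83) also had separate arrays. Pkp1, a plakophilin gene of desmosomal plaques, had 951, 867, 241 and 467 against 7448, 7255, 4346 and 3933 (-3.29, SE 0.19, adjusted p = 1.02e-05). Dsc2, a desmosomal cadherin gene, had 265, 321, 95.7 and 80.2 against 562, 481, 1906 and 661 (-2.16, SE 0.30, adjusted p = 0.00106). Its outer layer difference of -0.81 did not pass (adjusted p = 0.199) while the inner layer stood at -3.51, and this layer dependence passed (outer minus inner 2.70, adjusted p = 0.0173). Dsp, the gene of desmoplakin, passed with a smaller difference of -0.66 (SE 0.14), and Jup (-0.20), Pkp3 (-0.29) and Dsg2 (0.91) did not pass.

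Of 14 basal keratinocyte genes, 6 passed as higher in duct (42.9%) and 2 as higher in gland (14.3%), against 13.5% and 9.59% of all genes (median -0.36). Krt14 had 8896, 9394, 663 and 2307 in gland and 35992, 33738, 20222 and 24644 in duct (-3.04, SE 0.32, adjusted p = 0.000227). It was the member with separate arrays. Krt15, a keratin gene of basal and follicle stem cells, passed the other way (1.89, SE 0.37, adjusted p = 0.0067), with 2848 and 2118 on the myoepithelial arrays against 63.9 to 496 on the duct arrays. The integrin gene Itgb1 also passed as higher in gland (0.77, SE 0.19), with 1.77 in the outer layer and -0.23 in the inner layer. The gland-higher count of this list was 1 without myoepithelial array 1, luminal array 1 or duct basal array 2.

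Of 19 Notch pathway genes tested, 4 passed as higher in duct (21.1%, against 13.5% of all genes) and none as higher in gland, with a median of -0.35. They were a receptor gene, a ligand gene and 2 target genes, and most members of the pathway did not pass. Notch1, a receptor gene, had 314, 194, 605 and 429.9 in gland and 2114, 2488, 1094 and 1399 in duct (-2.21, SE 0.19, adjusted p = 7.07e-05). Every duct array lay above every gland array, and the outer layer difference exceeded the inner (outer minus inner -1.89, adjusted p = 0.0122). Jag1, a ligand gene, had 417, 247, 17.2 and 16.1 against 973, 1149, 436 and 437 (-2.83, SE 0.19, adjusted p = 2.07e-05). For Jag1 the inner layer difference was the greater (outer minus inner 2.29, adjusted p = 0.00553), since the luminal arrays were lowest. Of the targets, Nrarp passed in both layers, as given above. Hes1, a repressor gene and Notch target, had 516, 382, 1923 and 1376 against 1869, 8012, 1136 and 1625, with overlapping arrays (-1.42, SE 0.39, adjusted p = 0.028). Its inner layer difference was 0.26 (adjusted p = 0.788). Of the other target genes tested, Hey1 (-0.07, SE 0.34), Hey2 (0.03), Heyl (-0.68) and Hes5 did not pass, nor did the receptor genes Notch2 (-0.32) and Notch3 (-0.33), the ligand gene Jag2 (-0.45) or Rbpj, the gene of the DNA-binding partner of Notch (0.06).

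Cell division genes were higher in the duct almost throughout. Of 25 tested, 18 had separate arrays, all higher in duct, against 6.79% of all genes (list median -2.54). As higher in duct 24 passed, against 13.5% of all genes, and none passed as higher in gland. The count was 22 to 24 as each gland or duct array was left out in turn. The median difference was -3.45 in the outer layer and -1.53 in the inner layer. The cyclin gene Ccne1 did not pass (-1.18, SE 0.58, adjusted p = 0.173).

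Promoters of 4 of these genes are shown because their differences are among those of the list and because each holds sequence elements that cell cycle genes are known for. Capitals mark TTTGAA, the core of the cell cycle gene homology region that is read by the MuvB complexes, and CCAAT, the box bound by NF-Y, on either strand, so that TTCAAA and ATTGG are the same elements read on the other strand. The sequences are the 120 bases before the start of each gene in RefSeq annotation of GRCm38.p6, 5′ to 3′ on the strand of the gene, and the 4 genes were chosen after their matches were seen.
Ube2c: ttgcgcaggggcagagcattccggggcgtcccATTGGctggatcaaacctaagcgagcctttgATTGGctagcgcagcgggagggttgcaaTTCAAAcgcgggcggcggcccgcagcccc
Cdk1: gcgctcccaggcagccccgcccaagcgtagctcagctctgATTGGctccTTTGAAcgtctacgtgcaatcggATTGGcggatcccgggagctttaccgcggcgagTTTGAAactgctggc
Top2a: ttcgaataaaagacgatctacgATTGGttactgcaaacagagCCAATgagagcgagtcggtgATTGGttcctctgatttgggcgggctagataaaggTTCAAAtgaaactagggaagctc
Cdc20: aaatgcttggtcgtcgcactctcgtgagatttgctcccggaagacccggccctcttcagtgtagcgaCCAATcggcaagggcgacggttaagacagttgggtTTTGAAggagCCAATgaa
They lie at chr2:164769809-164769928 (Ube2c, plus strand), chr10:69352913-69353032 (Cdk1, minus strand), chr11:99024190-99024309 (Top2a, minus strand) and chr4:118437344-118437463 (Cdc20, minus strand). In the table's promoters, which run from 250 bases before to 50 after the start, 20 of the 25 cell cycle genes had an entry. Of these, 10 held TTTGAA (50%) and 17 held CCAAT (85.0%), against 18.1% and 37.9% of all 27025 promoters in the table. Among the 7513 genes tested that had a promoter the shares were 11.7% and 38.2%. A match is a description of the letters and not evidence of binding.

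The genes of these promoters act from replication to the end of mitosis. Ube2c, the ubiquitin-conjugating enzyme gene of the anaphase-promoting complex, had 38.7, 55.9, 19.8 and 27.2 on the gland arrays and 2166, 3008, 110.1 and 269.7 on the duct arrays. The duct basal arrays were highest and the suprabasal arrays still lay above all gland arrays (-3.92, SE 0.33, adjusted p = 6.62e-05). Top2a, the topoisomerase gene of dividing cells, had 79.3, 36.3, 34.3 and 44.0 against 2806, 2456, 286 and 258 (-3.89, SE 0.22, adjusted p = 1.02e-05). Cdk1, the gene of the kinase that starts mitosis, had 41.0, 29.2, 62.3 and 66.0 against 2515, 2143, 173 and 220.0 (-3.54, SE 0.17, adjusted p = 6.18e-06). Cdc20, an activator gene of the anaphase-promoting complex, had 357, 187, 236 and 154 against 7506, 7299, 431 and 870.0 (-3.20, SE 0.28, adjusted p = 8.41e-05). All 4 genes showed the same order, with duct basal arrays above duct suprabasal arrays and gland arrays lowest. Birc5, which encodes survivin, had the largest difference of the list, with 21.4, 24.6, 5.0 and 9.6 against 2124, 2614, 113 and 225 (-4.63, SE 0.24, adjusted p = 8.74e-06). Mki67, the proliferation marker gene, had 40.8, 31.6, 5.0 and 31.3 against 2048, 1615, 378 and 166 (-4.27, SE 0.34, adjusted p = 4.62e-05). Of the replication genes that passed, the helicase subunit genes Mcm6, Mcm3, Mcm5 and Mcm2 were at -2.46, -2.03, -1.91 and -0.70, the nucleotide reductase genes Rrm2 and Rrm1 at -3.34 and -1.03 and Pcna, the sliding clamp gene, at -1.17. The mitotic kinase genes Bub1, Aurkb, Bub1b, Plk1 and Aurka were at -3.33, -3.11, -2.66, -1.93 and -1.70, within the range of the replication genes. Cdk1, at -3.54, lay beyond that range. The epidermis arrays held 332 and 367 of Cdk1, between the layers of the duct.

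Of 20 Bmp, Tgfb and Id genes, 9 passed as higher in duct (45%) and 3 as higher in gland (15%), against 13.5% and 9.59% of all genes (median -0.64). The ligand gene Tgfb2 was among those higher in gland (0.85, SE 0.23), and the ligand gene Bmp6 did not pass (-0.90, SE 0.35). Bmp2, a ligand gene, had 34.5, 19.0, 12.1 and 10.5 in gland and 707, 792, 193 and 344 in duct, and the groups were separate in both layers (-3.93, SE 0.25, adjusted p = 1.45e-05). Bmp4 had 3.4 to 43.1 in gland and 82.5 to 356 in duct (-2.77, SE 0.47, adjusted p = 0.00336). Inhbb, the gene of an activin subunit, had 448, 301, 453 and 447 against 3518, 4359.9, 3014 and 2588 (-2.99, SE 0.16, adjusted p = 8.74e-06). The epidermis arrays held only 65.8 and 67.9 of Inhbb, below both compartments. Id3, a target gene of Bmp signalling, had 163, 316, 47.8 and 259.8 against 536, 1238, 503 and 4811 (-2.71, SE 0.70, adjusted p = 0.0225). Its highest signal was on duct suprabasal array 2, the array with the highest fibroblast and endothelial sums, and its call ended without myoepithelial array 1, luminal array 1 or duct basal array 2 (adjusted p up to 0.082). The count of 9 fell to 5 without any of these 3 arrays, and the count of 3 fell to 0 without myoepithelial array 1 or duct basal array 2. The part of fibroblast and vessel RNA in these results was not tested.

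Of 18 Wnt and Eda pathway genes, 6 passed as higher in duct (33.3%) and 2 as higher in gland (11.1%). The shares of all genes were 13.5% and 9.59%, and the median of the list was -0.27. The ligand genes Wnt4 (-0.35) and Wnt7b (0.61) and the secreted inhibitor genes Dkk3 (0.23), Sfrp1 (0.84) and Wif1 (-1.63) did not pass. Rspo1, the gene of a secreted enhancer of Wnt signalling, had 3.6, 13.6, 3.5 and 6.6 in gland and 770.3, 744, 149 and 195 in duct (-4.35, SE 0.27, adjusted p = 1.27e-05). It was at 2.0 and 3.3 on the epidermis arrays, so that the duct arrays alone held a clear signal. Among the other 5 duct-higher genes, the ligand gene Wnt10a was at -2.27 (SE 0.31), Wnt5a at -1.85 (SE 0.32) and the pathway target Axin2 at -1.28 (SE 0.36, adjusted p = 0.0319). The genes higher in gland were both receptors, Fzd7 (1.09, SE 0.15) and Lgr5 (1.03, SE 0.23), and their differences lay in the outer layer. Fzd7 had 7653 and 10566 on the myoepithelial arrays and 1729 to 1937 on the other gland and duct arrays. Without myoepithelial array 1 the gland-higher count was 1, and without duct suprabasal array 2 it was 4.

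Of 10 retinoid handling genes, 5 passed as higher in duct (50%, against 13.5% of all genes), all 5 with separate arrays, and 1 passed as higher in gland (median -0.58). Rbp4, the carrier gene of retinol, had 40.3, 55.5, 31.0 and 67.8 in gland and 5365, 7334, 256 and 1116 in duct. The duct basal arrays were well above the suprabasal arrays, which still lay above the gland (-4.98, SE 0.41, adjusted p = 5.39e-05). Stra6, the gene of the receptor that takes retinol from its carrier, had 19.7 to 26.8 in gland and 140.0 to 286 in duct (-2.55, SE 0.24). Crabp2, which carries retinoic acid to its nuclear receptor, had 7.2, 2.6, 4.5 and 3.9 against 1404, 1643, 223 and 336 (-5.33, SE 0.19, adjusted p = 1.67e-06). Aox3, an aldehyde oxidase gene, had 2.1, 16.6, 11.2 and 38.6 against 1720.1, 2925, 144 and 391 (-4.84, SE 0.42, adjusted p = 7.61e-05). Crabp2 was higher still in the epidermis, at 4588 and 4998, whereas Aox3 was at 10.9 and 3.0 there. Fabp5, another carrier of retinoic acid and fatty acids, was abundant everywhere and differed by -0.99 (SE 0.19). Dhrs3, a retinaldehyde reductase gene, was the member higher in gland (0.79, SE 0.18), and this call ended without myoepithelial array 1 or luminal array 1. The nuclear receptor genes Rarg (-0.18) and Rxra (0.22) did not pass.

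Of 19 glutathione and detoxification genes, 8 passed as higher in duct (42.1%) and 2 as higher in gland (10.5%), against 13.5% and 9.59% of all genes. Aldh3a1, the gene of an aldehyde dehydrogenase of surface epithelia, had 60.1, 40.5, 41.4 and 134 in gland and 1239, 1771, 1388 and 2155 in duct (-4.45, SE 0.34, adjusted p = 3.66e-05). Gsto1, a glutathione transferase gene, had 2086, 1519, 3547 and 3662 against 20464, 21502, 14165 and 14812 (-2.78, SE 0.13, adjusted p = 6.10e-06). Both genes had separate arrays with a wide gap. The gland-higher count of 2 ran from 0 to 3 as each array was left out, with 0 for luminal array 2 and for duct basal array 1. Of 16 lipid synthesis genes 4 passed as higher in duct (25%) and none as higher in gland, with Idi1, a cholesterol pathway gene, at 619, 432, 861 and 1288 against 1765, 1509, 2798 and 1978 (-1.39, SE 0.23, adjusted p = 0.00274). That count fell to 2 without myoepithelial array 2, luminal array 1 or luminal array 2.

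Of 6 genes of Igf binding proteins, Igfbp7 alone passed in the pooled comparison (16.7%, against 13.5% of all genes higher in duct). The list median was 1.76 in the outer and -3.85 in the inner layer. In the inner layer 5 passed as higher in duct, against 10.2% of all genes. In the outer layer 2 passed as higher in gland, against 12%. The layer dependence passed for all 6, against 15.8% of all genes. Igfbp7 had 1196, 1181, 255 and 829.9 in gland and 2124, 1984, 5230.0 and 27651 in duct (-2.73, SE 0.51, adjusted p = 0.00535). Its highest signal was on duct suprabasal array 2, where the endothelial sum was highest too, and its outer layer difference of -0.78 did not pass (adjusted p = 0.483). Whether vessel RNA contributed was not tested, and without duct suprabasal array 1, 5 genes of this list passed as higher in duct.

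Growth factor genes went in both directions. Of 21 tested, 5 passed as higher in gland (23.8%, against 9.59% of all genes) and 4 as higher in duct (19%, against 13.5%), or 2 without luminal array 1. The receptor gene Fgfr1 had 1836 to 2618 in gland and 726 to 1596 in duct, with separate arrays (0.99, SE 0.19, adjusted p = 0.00582). The ligand gene Fgf1 was at 1.82 (SE 0.37), Kitl, the gene of the ligand of Kit, at 1.41 (SE 0.27) and Fgfr2 at 1.23 (SE 0.29). Fgfr3 was at -0.96 (SE 0.18) and Hbegf at -1.28. In the inner layer Fgfr1, Fgf1, Kitl and Fgfr2 did not pass. Kitl was at 3.45 in the outer and -0.62 in the inner layer, and this layer dependence passed. Fgfr3 was at -0.05 in the outer and -1.86 in the inner layer. Of 17 appendage stem cell genes 4 passed as higher in gland (23.5%) and 5 as higher in duct (29.4%), against the same shares of all genes. Lrig1, the gene of a receptor feedback inhibitor that marks epidermal stem cells, was at 1.80 (SE 0.33), and Dlx3, a homeobox gene of appendages, at -2.04 (SE 0.26) with separate arrays. Without myoepithelial array 1 these counts were 2 and 3, and the duct-higher count was also 3 when array 2 of any of these 4 populations was left out.

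In 4 other lists at most 1 gene passed in the pooled comparison. Of all genes, 9.59% passed as higher in gland and 13.5% as higher in duct. None of 24 genes of the secretory machinery of the endoplasmic reticulum passed (median -0.10), while 2 passed as higher in duct without duct suprabasal array 1. None of 10 ductal ion absorption genes passed (median 0.50), among them the sodium channel gene Scnn1a (-0.55, SE 0.33). Without duct suprabasal array 1, 3 of these passed as higher in gland, and without myoepithelial array 1, 2 passed as higher in duct. Of 20 mitochondrial genes the cytochrome oxidase subunit gene Cox7a1 passed (0.99, SE 0.31, adjusted p = 0.0468), and as each gland or duct array was left out in turn this call held only without myoepithelial array 2 or duct suprabasal array 1. Of 15 basement membrane and matrix genes only Tnc, the gene of tenascin-C, passed in the pooled comparison, as higher in duct (-1.90). More did so without duct suprabasal array 1. The list median was 1.04 in the outer and -1.67 in the inner layer. In the outer layer 4 passed as higher in gland and 1 as higher in duct, against 12% and 12.2% of all genes. In the inner layer 7 passed as higher in duct, against 10.2%. Pooling cancelled the layer differences of Col4a1 (5.42 and -2.95) and Col4a2 (5.34 and -2.80), which all passed.

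Of 13 glycolysis genes, 2 passed as higher in gland (15.4%, against 9.59% of all genes), Pfkl, the phosphofructokinase gene (1.88, SE 0.20), and Ldhb (0.94). The lactate transporter gene Slc16a1 passed as higher in duct (-2.62, SE 0.27), which is 7.69% of the list against 13.5% of all genes. Without myoepithelial array 2, 5 glycolysis genes passed as higher in gland, and without duct suprabasal array 1, 4 did. Of 12 mucin, lipocalin and host defence genes 4 passed as higher in gland (33.3%, against 9.59% of all genes), Lcn2 (1.83), Lyz1 (1.81), Chil1 (1.62) and Csn3 (1.54), and 2 as higher in duct (16.7%, against 13.5%), Slpi (-2.12) and Wfdc2 (-1.45). Beside Lcn2, the immune cell sum was highest on the myoepithelial arrays, and its part in the result was not tested. The 4 host defence genes were 1 without luminal array 2 and 2 without duct basal array 2, and the pair higher in duct was 1 without luminal array 1 or duct basal array 2.

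**Figure D5:**
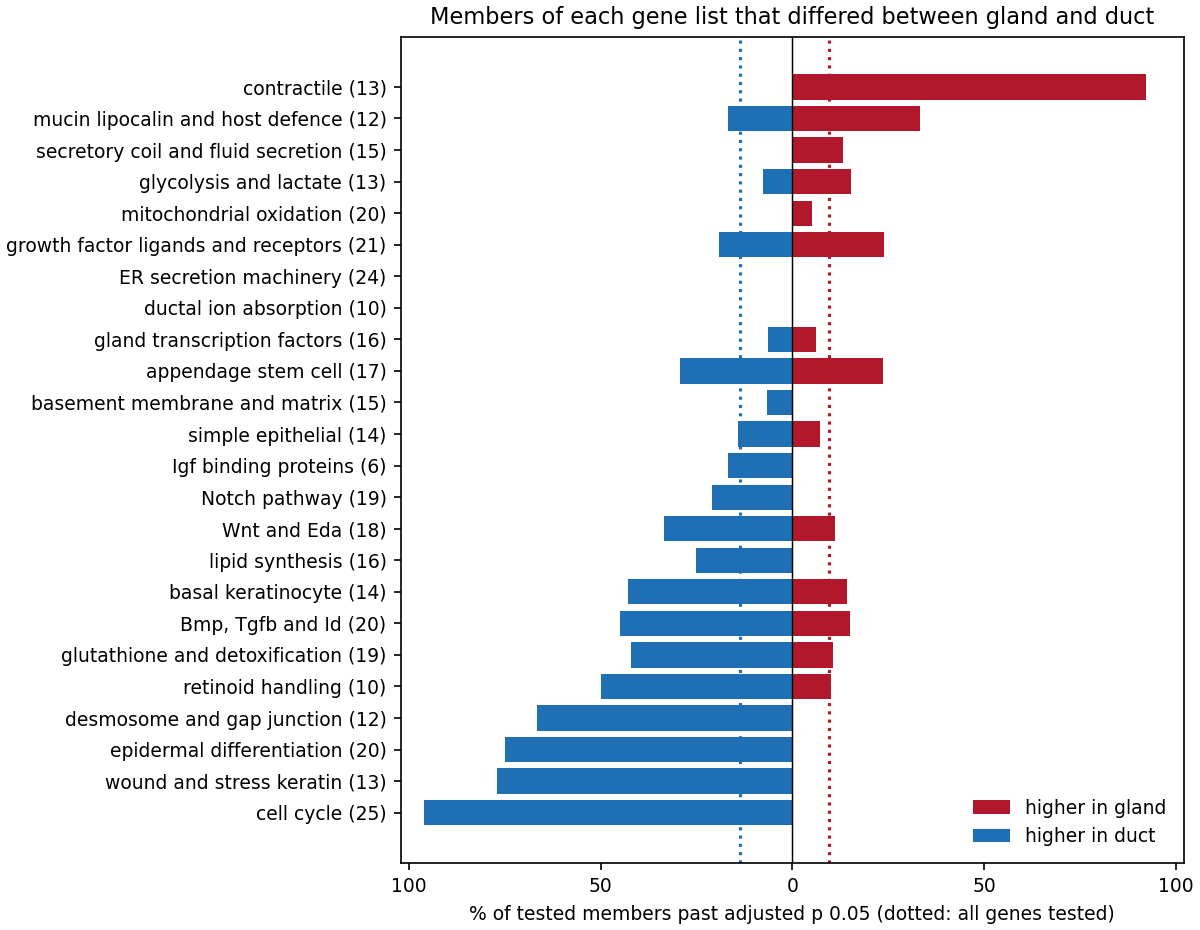
Percentage of the tested members of each gene list (number in brackets) past an adjusted p of 0.05, higher in gland to the right and higher in duct to the left, with the lists ordered by the gland share minus the duct share. The dotted lines mark the shares of all 9304 genes (9.59% and 13.5%), and the longest bars are the 12 of 13 contractile genes higher in gland and the 24 of 25 cell cycle genes higher in duct.

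The epidermis arrays entered the choice of probe set, the filter and the spread, but not the order of gland and duct arrays. Of the 297 genes higher in gland with separate arrays, 243 (81.8%) had both epidermis arrays below all 4 gland arrays and 7 (2.4%) above. Over all 9304 genes these shares were 33.6% and 24.2%. Of the 557 genes higher in duct, 427 (76.7%) had both epidermis arrays above all 4 gland arrays and 30 (5.4%) below. Here the shares of all genes were 24.2% and 33.6%. Since the genes were chosen for high or low gland arrays, these sides were favoured by the choice, and the counts are a description. Among the 557, both epidermis arrays lay above all 4 duct arrays at 175 (31.4%) and below all 4 at 145 (26.0%). For all genes tested these shares were 19% and 33.2%. Calm4, at 31707 and 29500.0, and Krt2, at 33655 and 25575, belonged to the genes that were higher in epidermis than in duct. Rspo1, Inhbb, Aox3, Adh7 (142 and 231), Rbp4 (205 and 222) and Bmp2 (56.5 and 50.7) had epidermis arrays below all 4 duct arrays.

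Pooling cancelled some differences. In 133 genes (1.43%) the outer layer comparison passed as higher in gland and the inner as higher in duct, and in 23 (0.247%) the reverse held. Scara5, a ferritin receptor gene of mesenchymal cells, had 1303, 1440.0, 28.5 and 33.4 on the gland arrays and 9.4, 60.9, 608 and 3756 on the duct arrays. Its layer differences were 5.13 and -5.16 and its pooled difference -0.01 (SE 0.55). Vim, the vimentin gene, had 27161, 41324, 1458 and 3108 against 3492, 1462, 12802 and 28554, with layer differences of 3.88 and -3.16. The myoepithelial and the duct suprabasal arrays were high for both genes, and the suprabasal signal was greater on array 2. B3galnt1, a glycosyltransferase gene, had layer differences of 3.82 and -3.21, Scara3, a scavenger receptor gene, 3.81 and -3.49, and Fbln5, an elastic fibre gene, 3.61 and -3.20. For these 3 genes also duct suprabasal array 2 held several times the signal of array 1, at 398 against 55.3, 1640.3 against 231 and 1329 against 281. Of the 9 fibroblast markers, 6 passed as higher in duct in the inner layer, as these genes did, against 10.2% of all genes. Pdgfra had 494 and 2027 on the suprabasal arrays. In the outer layer, where these genes were higher in gland, 3 of the markers passed as higher in duct and 1 as higher in gland. Of all genes, 12.2% and 12% did so. The part of fibroblast RNA in the inner layer differences was not tested. The inner layer calls of Vim, Scara3 and Fbln5 ended without luminal array 1, and that of B3galnt1 without either luminal array.

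In the reverse direction the differences were smaller. Scrg1, a gene found through its response to scrapie, had 454, 386, 1678 and 1806 in gland and 1019.5, 1219, 631 and 338 in duct, with layer differences of -1.39 and 1.88. The luminal arrays were highest and the myoepithelial arrays low, as were the suprabasal arrays. Fads2, a fatty acid desaturase gene, had 245, 52.8, 1775 and 1208 against 345, 840.0, 355 and 316, with -2.09 and 2.09. Syce2 (-1.10 and 1.42), Krtcap3 (-1.27 and 1.20) and Slc22a18 (-1.18 and 1.11) followed. Of these 5 genes, each lost at least 1 of its layer calls without at least 1 array.

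Markers of stromal cells differed between the compartments too. Of the 9 fibroblast markers 8 passed as higher in duct, 3 with separate arrays, and Postn did not pass (0.88). Among all genes, 13.5% passed as higher in duct and 6.79% had separate arrays in that direction. Pdgfra, the receptor gene that defines many fibroblasts, had 17.4, 1.8, 26.0 and 49.5 in gland and 306, 122, 494 and 2027 in duct (-3.87, SE 0.50, adjusted p = 0.000786). Of the 10 endothelial markers 8 passed as higher in duct and 1 had separate arrays, Plvap, at 120.2, 112, 93.6 and 270.4 against 558, 291, 3085 and 13152 (-3.45, SE 0.47). The fibroblast count was 4 without myoepithelial array 1, luminal array 1 or duct basal array 1, 5 without myoepithelial array 2 or duct basal array 2, and 8 without duct suprabasal array 2. The endothelial count was 5 without luminal array 1 or duct basal array 1, and 8 without duct suprabasal array 2. None of 4 pericyte markers passed. The 2 adipocyte markers tested, Adipoq (-2.28, SE 0.50) and Fabp4 (-2.13, SE 0.66), passed as higher in duct with overlapping arrays. Of the 9 immune cell markers 1 passed as higher in gland (11.1%, against 9.59% of all genes). In the outer layer 7 of them did, against 12% of all genes. The lowest gland signals of the fibroblast and endothelial lists were 1.2 for Dpt and 1.2 for Esm1. The lowest deposited value of any gene was 0.1 and detection calls were not used, so presence of these markers in gland was not tested.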

How the data were processed

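RNA of 5 sorted cell populations was measured on 10 Affymetrix mouse arrays, 2 per population. The deposited values are signal intensity on a linear scale, made by the authors with MAS5, per the submitters' processing notes, whose version is not given. They run from 0.1 to 72213.2, and their mean without the highest and lowest 2% is 500 on every array. Detection calls and raw scanner files were not used here, and the number of arrays limits the precision.

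Of 22690 probe sets, 64 controls were left out. A platform table gave 20380 probe sets 1 gene symbol, 691 several and 1555 none. For each of 12393 genes the probe set with the highest mean log2(signal + 12) was used. The test covered the 9304 genes that exceeded the 40th percentile on 2 or more arrays.

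The test was limma 3.58.1 (R 4.3.3), checked on simulated data, with 1 model of the means of 5 populations (5 residual degrees of freedom, variance trend). The pooled comparison was the mean of myoepithelial and luminal minus the mean of duct basal and duct suprabasal. Benjamini-Hochberg adjustment ran over all genes, with a threshold of 0.05.

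The comparison, gene lists, markers and tests were chosen with earlier results of these data known. Genes were named if they passed, had separate arrays, were at least 2-fold apart and lay above the median of all genes in the higher compartment. Of these, the 10 per direction with the largest difference shared by the layers, the 5 with the largest pooled difference and up to 3 per list were taken, with 5 per direction whose layers passed with opposite signs. Further members appear where they describe a list. Of 58 named genes, 21 have another probe set tested, and for 3 of these, Gja1, Fads2 and Slc22a18, another probe set had the opposite sign and none of those passed. Promoter sequences came from a RefSeq table of GRCm38.p6. Alternatives changed the pseudocount (1 or 47), the filter (none or the 60th percentile) and the scaling (quantile), or used the mean over probe sets, the 8 gland and duct arrays alone, a constant prior variance, array weights, models without layers or with an additive layer, a replicate block and each array left out.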

Additional observations from a re-analysis of the deposited data

Results flagged for a closer look

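In 5 of 116 groups of 4 arrays examined, 1 array lay far from the others, by the gap to its nearest neighbour over the range of the group on the log2(signal + 12) scale. Chance gives about 1 in 20 such groups where the 4 arrays are of 1 kind. Each group here joined the arrays of 2 layers, so that rate does not carry over. They were the gland arrays of Duoxa1 (0.948, luminal array 1 at 25.3), Inhbb (0.967, myoepithelial array 2 at 300.9) and Krt2 (0.855, myoepithelial array 2 at 92.1), and the duct arrays of Fads2 (0.883, duct basal array 2 at 840.0) and Nrarp (0.847, duct basal array 2 at 3468.6).

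The gland against duct difference depended on the layer for 1467 genes in limma. Of the named genes 28 did so, given here as the outer minus the inner layer difference in log2. The 10 genes with layers of opposite sign are among them, namely Scara5 at 10.28, Scara3 at 7.30, Vim at 7.04, B3galnt1 at 7.03, Fbln5 at 6.81, Fads2 at -4.18, Scrg1 at -3.27, Syce2 at -2.52, Krtcap3 at -2.47 and Slc22a18 at -2.29. Among the other 18, Cnn1 was at 7.29, Pdlim3 at 5.91, Fblim1 at 5.26, Cck at 2.64, Ppp1r14a at 2.53 and Slc2a4 at 1.61. For these the outer layer held the greater excess in gland. Jag1 at 2.29, Dsc2 at 2.70, Krt14 at 2.23 and Igfbp7 at 3.89 were further below the duct in the inner layer. Aox3 at -3.94, Rbp4 at -3.49, Ube2c at -3.06, Birc5 at -2.91, Crabp2 at -2.37, Notch1 at -1.89, Rspo1 at -1.84 and Gsto1 at -1.55 were further below the duct in the outer layer.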

How the results depend on the processing

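For gland against duct, 2150 genes passed, and 1985 to 2288 did with other pseudocounts, filters or quantile normalization. With only the 8 gland and duct arrays 1749 passed (943 against 1405 in the inner layer), and with array weights 1902. A constant prior variance and the mean over all probe sets of a gene each gave 1954. With that mean, 8 of the 2150 genes had a difference of the other sign. Models that take no account of layers, or only an additive layer, gave 162 and 680 genes, with 22 and 194 higher in gland and 140 and 486 higher in duct. In these the gland share of calls was 13.6% and 28.5%, against 41.5%. Leaving out each array in turn gave 1264 to 2766 genes for gland against duct (455 to 1229 higher in gland, 809 to 1537 higher in duct), 1153 to 2819 in the outer layer, 273 to 2033 in the inner layer and 615 to 2014 for layer dependence. Between 57.4% and 92.5% of the calls were kept, and no kept call changed sign. The inner layer count was 929 with array weights and 2170 with array 1 of both myoepithelial and duct suprabasal cells left out, an alternative chosen after seeing the data. Genes with separate arrays numbered 1036 to 1813 as each array was left out (404 to 827 higher in gland, 632 to 986 higher in duct). Fewer arrays separate more easily, and without the pair above there were 2120 (958 and 1162) and with myoepithelial array 1 left out beside duct suprabasal array 2 there were 1778 (681 and 1097). No named gene reversed under the alternatives run, and 16 of 48 lost their pooled call in the model without layers. With a replicate block for the array numbers 2642 genes passed, including 2149 of the 2150. The arrays share only a number: the labels describe no pairing, and differences between array 1 and array 2 correlated at 0.117 to 0.360 between gland and duct populations and at 0.027 to 0.086 with epidermis. With 2 arrays per population, a gene that does not pass is not shown to be equal.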

Other observations

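The genes below were chosen after their values were seen. Among genes higher in gland with separate arrays, several are known from nerve or muscle. Nrtn, the gene of the neurotrophic factor neurturin, had 5032, 7618, 418 and 688 on the gland arrays and 332, 319, 222 and 236 on the duct arrays, in the order used above (2.69, SE 0.20). Mb, the myoglobin gene, had 392, 471, 48.3 and 81.5 against 3.5, 3.6, 37.2 and 25.7 (2.82, SE 0.28). Pygb, a glycogen phosphorylase gene, had 4162, 3149, 1388 and 1059 against 414, 302, 694 and 566 (2.12, SE 0.18). Rtn2, a reticulon gene of the endoplasmic reticulum, had 253, 279.8, 279 and 265 against 3.6, 1.9, 91.0 and 75.9 (2.91, SE 0.20). Gland levels of Rtn2 were alike in both layers, while those of Nrtn and Mb were highest in the outer layer. Mucl2, a mucin-like gene, had the largest inner layer difference of all genes at 5.45 (adjusted p = 0.00821), with 589 and 1945 on the luminal arrays and 34.3 and 1.3 on the duct suprabasal arrays.

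Some transcription factor genes were higher in duct with separate arrays, while others of skin, such as Gata3 (-0.83) and Msx2 (-0.21), did not pass. Hopx, a homeodomain-only gene, had 174, 134, 92.6 and 198 against 4666, 5943, 3135 and 3379 (-4.73, SE 0.22). Bcl11b, a zinc finger gene of skin and T cells, had 26.8, 7.7, 2.3 and 17.7 against 494, 557, 226 and 147 (-3.76, SE 0.33). Dlx5 stood at -3.00 (SE 0.30), Mycl at -4.06 (SE 0.28) and Klf4, a barrier gene of epidermis, at -2.71 (SE 0.19). Myc, at 184, 190.2, 45.5 and 67.6 against 1169, 3059, 490.0 and 446 (-3.04, SE 0.27), and Klf4 also belong to a list of 20 early response genes of tissue dissociation, of which 3 passed as higher in duct (15%) and 2 as higher in gland (10%), against 13.5% and 9.59% of all genes. Whether handling of the tissue contributed was not tested. Aqp3, the water and glycerol channel gene of epidermis, had 105, 69.5, 78.1 and 199 against 4200.0, 6953, 1866 and 2754 (-4.92, SE 0.30). Ptn, the gene of the growth factor pleiotrophin, had 529.5, 621, 51.3 and 139 against 13079, 10053, 1237 and 2296 (-4.21, SE 0.29).

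The matrix genes Col6a1 and Fbln2 had separate arrays. Col6a1 had 92.1, 135, 65.2 and 210.0 against 1647, 1295, 651 and 1764 (-3.31, SE 0.38), and Fbln2 had 114, 162, 20.2 and 129 against 1213, 1163, 430.3 and 2225 (-3.45, SE 0.55). On the fibroblast list, the matrix genes Col1a1 and Fbln1 also had separate arrays. Their outer layer differences of -3.12 and -3.21 passed as higher in duct. The matrix genes Col1a2, Col3a1, Dcn, Lum and Dpt of that list had overlapping arrays and no outer layer difference that passed. Whether fibroblast RNA contributed was not tested.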
